A study of Mus musculus with 9 samples.

Results

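Epithelial-mesenchymal transition (EMT) genes were followed across 9 mouse oral tumors with 10 genes taken by platform symbol. They were the epithelial identity genes Cdh1 and Epcam, the mesenchymal identity genes Cdh2, Vim and Lgals1, and the transcription factor genes Snai1, Snai2, Twist1, Zeb1 and Zeb2. All 10 were on the array, by 23 of its 45037 non-control probe sets and as 10 of its 18193 named genes. The tumors formed 3 groups of 3. In p53R172H/- tumors the only p53 allele was the missense mutant R172H, p53R172H/+ tumors paired that mutant with a wild-type copy, and p53-/- tumors were p53-null. Each was an oral tumor of a mouse aged 1 year, and the series' title adds Ras activation for all groups. The mice are labelled K-p53R172H/-, K-p53R172H/+ and K-p53-/-. The wild-type copy was not tested for loss. No source used here gives the promoter or recombinase behind these alleles, or says whether the tumors of a group came from separate animals, so p-values measure only the spread between these tumors. The series set mutant p53 against p53 loss, and that question is put here to the EMT genes. The mutant groups share the p53-/- tumors as their control, so their differences from them are not independent.

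In EMT, epithelial cells loosen the E-cadherin junctions that hold them together and take up features of mesenchymal cells, such as vimentin filaments and N-cadherin. Transcription factors of the Snail, Twist and ZEB families drive the change and repress Cdh1, the Snail and ZEB factors by binding E-box motifs in its promoter. Fibroblasts, endothelial cells and macrophages of a tumor also express Vim, Lgals1, Zeb1 and Zeb2, and basal keratinocytes express Snai2. In whole tumors, fewer cells of a type and less RNA per cell cannot be told apart.

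Each array gave 1 signal per probe set in linear units, with array medians of 109.1 to 123.04 units. Levels are compared between tumors within 1 probe set and never between probe sets. Signals below 52.6 units, the 20th percentile of all values, were raised to that floor before log2 was taken. The 3′ to 5′ signal ratios of the control probe sets, a sign of RNA integrity, were 0.929 to 1.03 for Gapdh and 1.31 to 1.69 for actin. The actin ratio was 1.31 to 1.56 in p53R172H/-, 1.36 to 1.48 in p53R172H/+ and 1.502 to 1.69 in p53-/- tumors, and its 2 highest values were both of p53-/- tumors. The part of this in the differences from p53-/- tumors was not tested. The keratinocyte list had all 12 of its measured genes at or above the floor on average, with summed signals of 126140 to 142768 in p53R172H/-, 135459 to 142702 in p53R172H/+ and 128868 to 137029 in p53-/- tumors. Keratinocyte RNA was thus abundant in every tumor. Of the stroma, all 14 fibroblast and matrix genes, all 11 endothelial genes and all 15 measured macrophage and monocyte genes were at or above the floor on average too. Skeletal muscle genes set tumors apart, with summed signals of 1937 to 46389 in p53R172H/-, 1665 to 7743 in p53R172H/+ and 4197 to 7135 in p53-/- tumors.

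No EMT gene differed between the genotypes at an adjusted p of 0.05 (limma, Benjamini-Hochberg over all features tested). Of the 10 genes, 7 were bright enough for the test over 12167 genes, each by its brightest probe set. Snai1 and Twist1 were tested in the fit of 29716 probe sets, which held 17 of the 23 probe sets, and Cdh2 was too dim for either. In p53R172H/- against p53-/- tumors, 0 of 7 genes were called, beside 0% of all genes. At an unadjusted p under 0.05, 1 of 7 was higher (Epcam) and 0 lower, where the background was 6.44% higher and 9.16% lower. For p53R172H/+ against p53-/- tumors, 1 of 7 was higher (Snai2) and 0 lower, against 4.75% and 5.6% of all genes. Between p53R172H/- and p53R172H/+ tumors the counts were 0 and 0, against 2% and 2.96%. Both p53R172H groups against p53-/- tumors gave 1 higher (Snai2) and 0 lower, against 6.84% and 9.09%. With so few genes, counts of 0 and 1 do not stand out from these shares. The members' median log2 fold changes in these comparisons were -0.05, 0.24, -0.08 and 0.01, and those of all genes were -0.03, -0.03, -0.01 and -0.03.

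**Figure D1:**
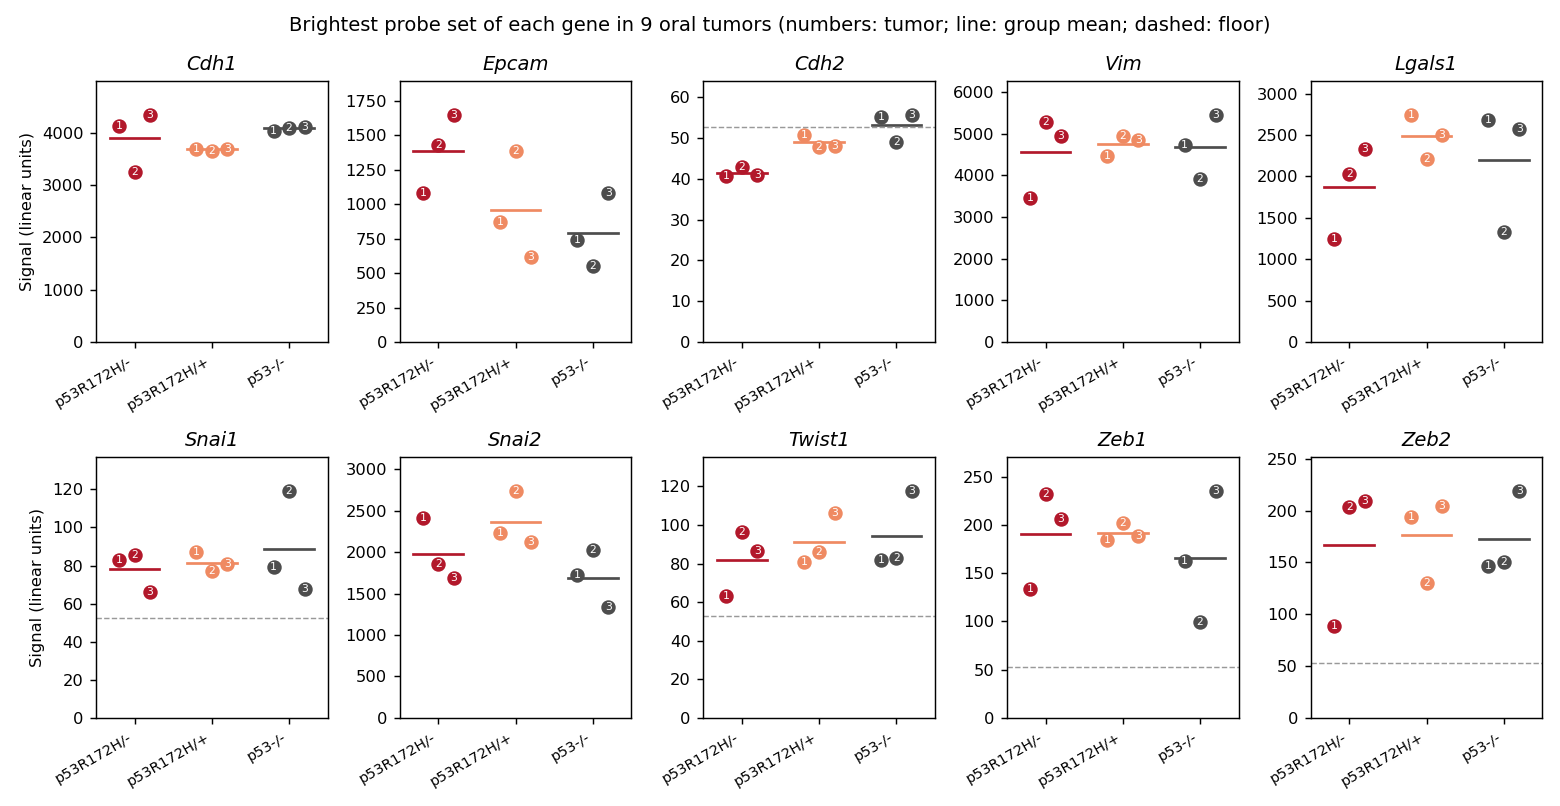
Signal in linear units of the brightest probe set of the 10 EMT genes in each of 9 tumors (points, numbered by tumor; horizontal lines, group means; dashed line, the floor of 52.6 units, drawn for dim genes). Epcam was highest on average in p53R172H/- tumors, Snai2 in p53R172H/+ tumors, and Cdh2 was above the floor in only 2 p53-/- tumors.

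Cdh1 encodes E-cadherin, the adhesion protein of epithelial junctions, and was the steadiest of the bright members. Its probe set 1448261_at gave 4132, 3251 and 4338 units in p53R172H/- tumors, 3695, 3659 and 3698 units in p53R172H/+ tumors, and 4042, 4098 and 4111 units in p53-/- tumors. The 3 p53R172H/+ tumors lay close together and below every p53-/- tumor, while the p53R172H/- tumors spread on both sides. The log2 fold change was -0.15 ± 0.10 (SE, 95% interval -0.38 to 0.08, adjusted p = 0.595 by limma) for p53R172H/+ against p53-/- tumors. It was -0.07 ± 0.10 (SE, interval -0.30 to 0.15) for p53R172H/- tumors. These intervals exclude a Cdh1 level in either mutant group as low as 1 log2 unit under that of p53-/- tumors. Groups that do not overlap in this direction were found for 8.86% of all genes in the p53R172H/+ comparison. The spread of Cdh1 over the 9 tumors (SD 0.13 on the log2 scale) was larger than that of 24.6% of genes.

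Epcam, which encodes an adhesion molecule of simple and proliferating epithelia, had the largest difference of the members on its brightest probe set and an opposite one on its other. Probe set 1416579_a_at gave 1084, 1431 and 1645 units in p53R172H/- tumors, 869, 1383 and 620 units in p53R172H/+ tumors, and 737, 550 and 1082 units in p53-/- tumors. All 3 p53R172H/- tumors were above the p53-/- tumors (lowest of the mutant tumors 1084 units, highest of the p53-/- tumors 1082 units), and the p53R172H/+ tumors overlapped both groups. The level was 1.80-fold higher in p53R172H/- than in p53-/- tumors (log2 fold change 0.85 ± 0.32 SE, unadjusted p = 0.0258 and adjusted p = 0.281 by limma). Of the 7 genes 1 was apart upward and 0 downward in this comparison, against 9.11% and 13.8% of all genes. For p53R172H/+ against p53-/- tumors the log2 fold change was 0.25 ± 0.32 (SE), and for p53R172H/- against p53R172H/+ tumors 0.59 ± 0.32 (SE, adjusted p = 0.949). The last was 0.32 without p53R172H/+ tumor 3 and 0.90 without p53R172H/+ tumor 2. The 2 p53R172H/- tumors with the most Epcam, tumors 2 and 3, were also the 2 of the 9 with the most skeletal muscle RNA (mean log2 signals of 10.37 and 9.32 for the muscle list, against 6.38 to 8.17 in the other seven). The least muscle RNA (6.38) was in p53R172H/+ tumor 2, which had 1383 units of Epcam. Over the 9 tumors Epcam and the muscle list had r 0.33 (exact permutation, adjusted p = 0.595, rho 0.22, adjusted p = 0.880). That r was 0.47 without the 2 farthest tumors and 0.07 within genotypes. With the endothelial list Epcam had r 0.47 (exact permutation, adjusted p = 0.432, rho 0.32, adjusted p = 0.707), -0.06 without the 2 farthest and 0.88 within genotypes. With the macrophage and monocyte list r was 0.41 (exact permutation, adjusted p = 0.501, rho 0.45, adjusted p = 0.582), 0.39 without the 2 farthest and 0.30 within genotypes. The fibroblast and keratinocyte lists gave r 0.13 and 0.08 (0.66 and 0.36 within genotypes). The part of muscle or stromal RNA in the Epcam level was not tested. Without p53R172H/- tumors 2 and 3, which leaves only tumor 1 of that genotype, the Epcam log2 fold change against p53-/- tumors was 0.51.

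The dimmer Epcam probe set 1447899_x_at gave 280, 307 and 278 units in p53R172H/- tumors, 229, 289 and 317 units in p53R172H/+ tumors, and 318, 341 and 315 units in p53-/- tumors. On it every p53R172H/- tumor was below every p53-/- tumor, the reverse of the brighter probe set. The log2 fold change was -0.17 ± 0.13 (SE, adjusted p = 0.532 by limma). Of the 17 probe sets 1 was apart upward and 1 downward, against 8.77% and 12.2% of all probe sets. Over the 9 tumors the signals of the 2 probe sets had a Pearson r of -0.36 (exact permutation p = 0.351, adjusted p = 0.484) and a Spearman rho of -0.67 (exact permutation p = 0.0589, adjusted p = 0.118). Without the 2 tumors farthest from the median, r was 0.09. On Affymetrix arrays the suffix x marks probe sets that may also bind other transcripts. It is carried by this Epcam probe set and also by the brightest probe sets of Vim and Snai2. The 2 Epcam probe sets disagree in direction.

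The Snail and ZEB factors recognise E-boxes of the form CAGGTG or, on the other strand, CACCTG. RefSeq promoters (GRCm38.p6) were at hand for 5 of the 10 genes, and both strands of the 250 bases before the gene start were searched. The motif was present in 17.1% of 27025 genes with such a window, and at 2 or more places in 2.06%. Epcam is shown because it held 2 E-boxes and its brightest probe set had the members' largest log2 fold change, which did not pass after adjustment. Snai1 is shown because it is a Snail gene with 1, and Vim for comparison because it held 0. They were chosen with their E-boxes known. Twist1 and all 4 annotated starts of Zeb2 also held 0. Capitals mark the E-boxes.
Epcam, chr17:87635729-87635978, plus strand: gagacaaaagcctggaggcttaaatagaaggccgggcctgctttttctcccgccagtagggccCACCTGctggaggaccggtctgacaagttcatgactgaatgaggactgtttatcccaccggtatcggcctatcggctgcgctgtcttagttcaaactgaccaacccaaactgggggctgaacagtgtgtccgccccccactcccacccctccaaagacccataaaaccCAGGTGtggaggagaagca
Snai1, chr2:167537945-167538194, plus strand: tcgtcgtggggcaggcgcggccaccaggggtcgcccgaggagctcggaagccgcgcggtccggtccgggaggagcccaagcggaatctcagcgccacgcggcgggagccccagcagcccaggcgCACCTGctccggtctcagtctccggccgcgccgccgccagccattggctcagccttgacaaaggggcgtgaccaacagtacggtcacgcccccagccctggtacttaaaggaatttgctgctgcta
Vim, chr2:13574061-13574310, plus strand: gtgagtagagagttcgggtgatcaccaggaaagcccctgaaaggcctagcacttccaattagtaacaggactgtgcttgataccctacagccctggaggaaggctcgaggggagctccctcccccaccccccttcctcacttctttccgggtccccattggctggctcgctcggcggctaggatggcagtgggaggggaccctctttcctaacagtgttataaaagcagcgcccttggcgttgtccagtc
In Epcam the E-boxes begin 187 and 19 bases before the start (positions -187 and -19), and in Snai1 126 bases before it (position -126). A match describes the letters only, and no binding was measured.

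Cdh2 encodes N-cadherin, the cadherin of mesenchymal, neural and muscle cells, and was near or under the floor in all tumors. Probe set 1449244_at gave 40.7, 42.8 and 41.0 units in p53R172H/- tumors, 50.7, 47.9 and 48.0 units in p53R172H/+ tumors, and 55.1, 49.1 and 55.6 units in p53-/- tumors. Only 2 of these 9 values were above the floor, and under it values have no reliable order, so no difference was tested. The other probe set, 1418815_at, lay at 20.9 to 39.3 units, under the floor on all 9 arrays.

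Vim encodes vimentin, the intermediate filament of mesenchymal cells, and its level varied within genotypes. Probe set 1438118_x_at gave 3470, 5291 and 4955 units in p53R172H/- tumors, 4464, 4944 and 4843 units in p53R172H/+ tumors, and 4724, 3906 and 5450 units in p53-/- tumors. The lowest values were those of p53R172H/- tumor 1 and p53-/- tumor 2, and all groups overlapped. The log2 fold changes were -0.05 ± 0.17, 0.03 ± 0.17 and -0.08 ± 0.17 (SE) for p53R172H/- against p53-/-, p53R172H/+ against p53-/- and p53R172H/- against p53R172H/+ tumors. The 95% intervals of these 3 lay between -0.45 and 0.40. Without p53R172H/- tumors 2 and 3, which leaves only tumor 1 of that genotype, the p53R172H/- differences were -0.42 against p53-/- and -0.45 against p53R172H/+ tumors. Probe sets 1450641_at (1900 to 3876 units) and 1456292_a_at (1347 to 3099 units) had the same 2 lowest tumors. Pearson r between the 3 probe sets was 0.87 to 0.93 over the 9 tumors (exact permutation, adjusted p 0.00511 to 0.00654), with rho of 0.63 to 0.87 (adjusted p 0.0202 to 0.127). Without the 2 farthest tumors r was 0.63 to 0.78.

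Lgals1 encodes galectin-1, a secreted lectin made by fibroblasts and other mesenchymal cells. Probe set 1455439_a_at gave 1249, 2026 and 2327 units in p53R172H/- tumors, 2741, 2208 and 2504 units in p53R172H/+ tumors, and 2683, 1328 and 2571 units in p53-/- tumors. The same 2 tumors were low as for Vim. Averages were 1867 ± 556 units in p53R172H/-, 2484 ± 267 units in p53R172H/+ and 2194 ± 752 units in p53-/- tumors (SD, n = 3 each). The log2 fold changes were -0.21 ± 0.29 (p53R172H/- against p53-/-), 0.24 ± 0.29 (p53R172H/+ against p53-/-) and -0.45 ± 0.29 (p53R172H/- against p53R172H/+), in SE. The last had an adjusted p of 0.949 (limma) and was -0.19 without p53R172H/- tumor 1. Without the muscle-rich p53R172H/- tumors 2 and 3, which leaves only tumor 1 of that genotype, the differences of p53R172H/- tumors were -0.74 against p53-/- and -0.99 against p53R172H/+ tumors (adjusted p of 0.406 and 0.658 by limma). Its other probe set, 1419573_a_at, followed it closely (Pearson r 0.96, exact permutation, adjusted p = 0.00511, rho 0.92, adjusted p = 0.0131, r without the 2 farthest tumors 0.85).

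**Figure D2:**
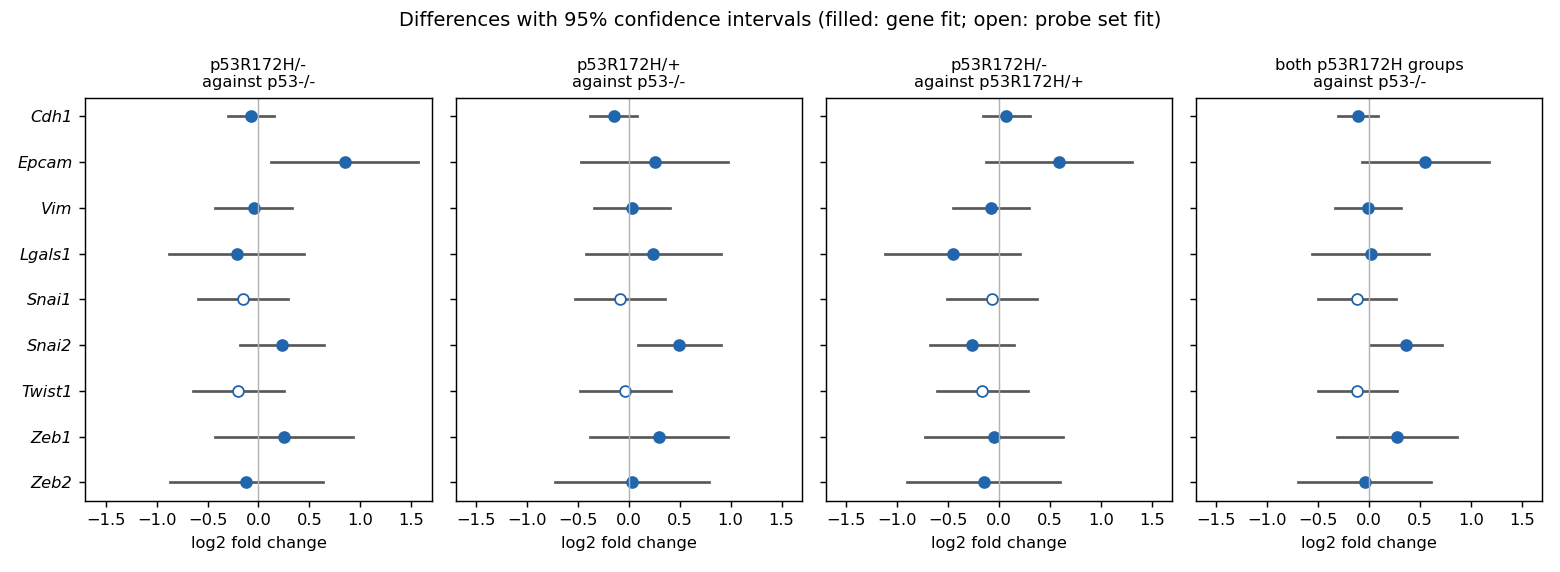
Log2 fold changes (points) with 95% confidence intervals (lines) of 9 EMT genes in 4 comparisons, from the gene fit (filled) or, for Snai1 and Twist1, the probe set fit (open). The intervals of Epcam in p53R172H/- against p53-/- tumors (0.13 to 1.57), and of Snai2 in p53R172H/+ against p53-/- tumors (0.09 to 0.90) and in both p53R172H groups against p53-/- tumors (0.01 to 0.72), leave out 0 before adjustment over all genes.

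Among the transcription factors, Snai2, which encodes the repressor Slug, had its highest mean level in p53R172H/+ tumors. Probe set 1447643_x_at gave 2409, 1856 and 1684 units in p53R172H/- tumors, 2236, 2741 and 2127 units in p53R172H/+ tumors, and 1724, 2023 and 1333 units in p53-/- tumors. Every p53R172H/+ tumor was above every p53-/- tumor, and the p53R172H/- tumors overlapped both. The level was 1.41-fold higher in p53R172H/+ than in p53-/- tumors (log2 fold change 0.50 ± 0.18 SE, unadjusted p = 0.0225, adjusted p = 0.425 by limma). Groups apart in this direction made up 7.08% of all genes.

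The second Snai2 probe set, 1418673_at, gave 1167, 1044 and 912 units in p53R172H/- tumors, 1196, 1341 and 991 units in p53R172H/+ tumors, and 977, 829.05 and 740 units in p53-/- tumors. Its log2 fold change for p53R172H/+ against p53-/- tumors was 0.47 ± 0.15 (SE, unadjusted p = 0.00995, adjusted p = 0.442 by limma), close to that of the first. In this comparison 2 of the 17 probe sets, both of Snai2, were apart upward and 1 downward, against 6.45% and 8.12% of all probe sets. The probe sets ran together over the 9 tumors (Pearson r 0.86, exact permutation, adjusted p = 0.00654, rho 0.85, adjusted p = 0.0202, r without the 2 farthest tumors 0.60). For p53R172H/- against p53-/- tumors they gave 0.23 ± 0.18 and 0.30 ± 0.15 (SE). The first of these was 0.069 with p53-/- tumor 3 left out, 0.083 when p53R172H/- tumor 1 was left out, and 0.37 on leaving out p53-/- tumor 2. The difference between the mutant groups was -0.26 ± 0.18 (SE, p53R172H/- against p53R172H/+, adjusted p = 0.949 by limma). With each tumor left out in turn, the log2 fold change of p53R172H/+ against p53-/- tumors stayed between 0.33 and 0.63.

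Snai1, which encodes Snail, the paralog of Slug, was dim. It gave 82.7, 85.6 and 66.1 units in p53R172H/- tumors, 87.1, 76.9 and 80.7 units in p53R172H/+ tumors, and 79.4, 119 and 67.9 units in p53-/- tumors. Only p53-/- tumor 2 stood above the rest, and the groups overlapped. The log2 fold changes were -0.15 ± 0.20 and -0.08 ± 0.20 (SE) for p53R172H/- and p53R172H/+ against p53-/- tumors. Twist1, a basic helix-loop-helix factor gene active in fibroblasts, was also dim. It gave 63.3, 96.3 and 86.4 units in p53R172H/- tumors, 81.0, 86.2 and 106 units in p53R172H/+ tumors, and 81.8, 82.7 and 118 units in p53-/- tumors. Its log2 fold changes were -0.20 ± 0.20 and -0.04 ± 0.20 (SE) in the same comparisons, with all groups overlapping. Without p53R172H/- tumors 2 and 3, which leaves only tumor 1 of that genotype, the Twist1 differences were -0.55 against p53-/- and -0.52 against p53R172H/+ tumors. The Twist1 difference of p53R172H/- from p53-/- tumors was -0.024 without p53R172H/- tumor 1.

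Zeb1 encodes a zinc finger repressor of Cdh1. Probe set 1418926_at gave 133, 233 and 206 units in p53R172H/- tumors, 184, 202 and 189 units in p53R172H/+ tumors, and 163, 99.0 and 235 units in p53-/- tumors. Within p53-/- tumors the highest and lowest values differed 2.38-fold, more than any difference between group means, and the groups overlapped. The log2 fold changes were 0.25 ± 0.30 (p53R172H/-) and 0.30 ± 0.30 (p53R172H/+, both SE and against p53-/- tumors). The first was -0.23 without p53R172H/- tumors 2 and 3, which leaves only tumor 1 of that genotype. A second probe set, 1443005_at, barely varied (93.2 to 115 units) and did not follow the first (Pearson r 0.33, exact permutation, adjusted p = 0.484, rho 0.28, adjusted p = 0.579, r without the 2 farthest tumors 0.50). The remaining pair of Zeb1 probe sets was dim, with 8 and 9 of 9 values under it.

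Zeb2 encodes the other ZEB repressor, which macrophages also express. Probe set 1456389_at gave 88.9, 203 and 209 units in p53R172H/- tumors, 194, 130 and 205 units in p53R172H/+ tumors, and 147, 151 and 219 units in p53-/- tumors. The lowest was p53R172H/- tumor 1, and the groups overlapped. The log2 fold changes were -0.12 ± 0.33 (p53R172H/-) and 0.03 ± 0.33 (p53R172H/+, both SE and against p53-/- tumors). Without p53R172H/- tumors 2 and 3, which leaves only tumor 1 of that genotype, the p53R172H/- differences were -0.93 against p53-/- and -0.96 against p53R172H/+ tumors. Probe set 1422748_at, at 47.9 to 89.0 units, gave 0.27 ± 0.23 and 0.19 ± 0.23 (SE) in these comparisons. Its r with the first was 0.72 (exact permutation, adjusted p = 0.0376), with rho 0.50 (adjusted p = 0.254) and r 0.84 without the 2 farthest tumors. Probe set 1458941_at stayed at 49.2 to 61.8 units. It followed neither 1456389_at (r -0.12, exact permutation, adjusted p = 0.770, rho -0.18, adjusted p = 0.704) nor 1422748_at (r -0.16, adjusted p = 0.731, rho -0.05, adjusted p = 0.904). Without the 2 farthest tumors these r were -0.44 and -0.37. The remaining Zeb2 probe sets had 8 and 9 of 9 values under the floor.

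**Figure D3:**
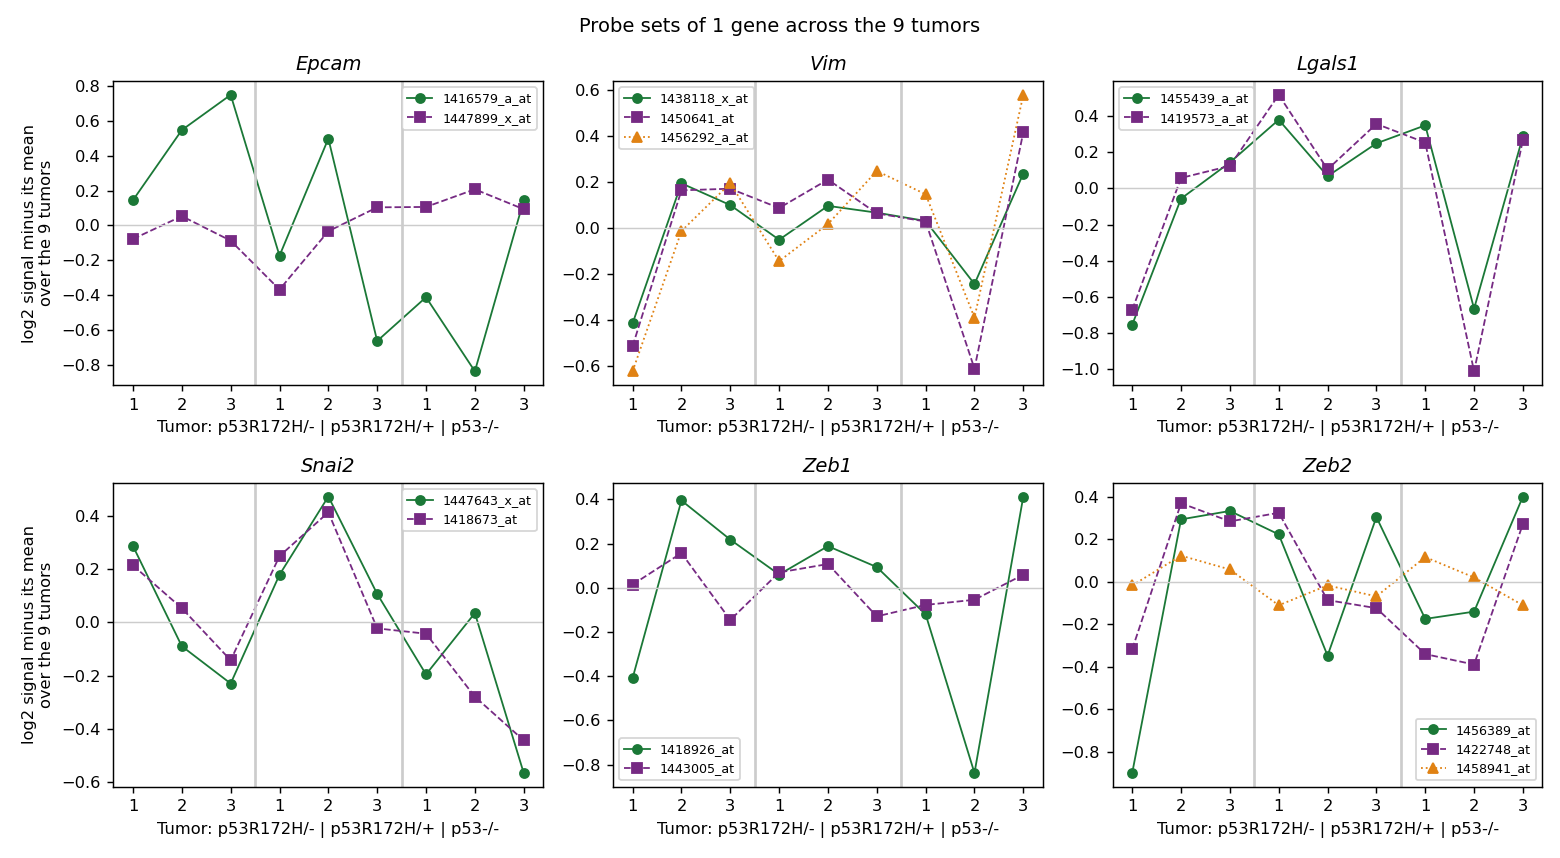
Log2 signal of each probe set minus its mean over the 9 tumors, for the 6 genes with several probe sets in the probe set fit (lines join tumors 1 to 3 of each genotype, p53R172H/-, p53R172H/+ and p53-/- from left to right, and carry no order). The Vim, Lgals1 and Snai2 probe sets ran together (r of 0.86 to 0.96), whereas those of Epcam (r of -0.36) and Zeb1 (r of 0.33) did not. For Zeb2, 1456389_at and 1422748_at had r of 0.72, and 1458941_at had r of -0.12 and -0.16 with them.

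Members were also set against each other over the 9 tumors. Of the 45 pairs among the 10 genes, 0 had a Pearson r that passed after adjustment (exact permutation over all orders of the 9 tumors, smallest adjusted p = 0.0897). Cdh2 was counted in the adjustment of these pairs and of the marker list relations below. As 7 of its 9 values were tied at the floor, its correlations are not read here. By Spearman's rho 1 pair passed, Vim with Zeb1 (rho 0.97, exact permutation p = 0.000165, adjusted p = 0.00744, against r 0.87 with adjusted p = 0.0897). Without p53-/- tumor 2 and p53R172H/- tumor 1, the 2 farthest in Vim, r was 0.86. As deviations from the genotype means it was 0.93 (exact permutation within genotypes, p = 0.00463, the smallest these 216 orders can give). The adjusted p of rho was 0.0513 without p53-/- tumor 3, p53R172H/- tumors 2 or 3 or p53R172H/+ tumor 2, and 0.0502 without p53R172H/+ tumor 3. It was 0.0179 without any of the other four. Zeb1 is read here by probe set 1418926_at. The pair was not tested on 1443005_at, which did not follow it (r 0.33, rho 0.28).

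Vim also ran with Twist1 (r 0.83, exact permutation, adjusted p = 0.0897, rho 0.85, adjusted p = 0.137, r without the 2 farthest tumors 0.74). With Zeb2 its r was 0.78 (exact permutation, adjusted p = 0.170, rho 0.72, adjusted p = 0.276), and r was 0.33 without the 2 farthest tumors. With Lgals1 its r was 0.78 (exact permutation, adjusted p = 0.173, rho 0.25, adjusted p = 0.732) and -0.55 without the 2 farthest, so that relation rests on p53-/- tumor 2 and p53R172H/- tumor 1. Snai1 and Snai2 had negative r with each of Vim, Lgals1, Twist1, Zeb1 and Zeb2 (-0.78 to -0.27). Snai1 with Zeb1 had r -0.78 (exact permutation, adjusted p = 0.170, rho -0.60, adjusted p = 0.396) and -0.37 without its 2 farthest tumors. Snai2 with Zeb2 had r -0.61 (exact permutation, adjusted p = 0.278, rho -0.73, adjusted p = 0.276) and -0.50 without its 2 farthest. Snai1 with Snai2 had r 0.36. Cdh1, the textbook target of the repressors, had r of -0.17 with Snai1, -0.33 with Snai2, -0.25 with Twist1, -0.40 with Zeb1 and -0.22 with Zeb2 (exact permutation, adjusted p 0.571 to 0.748). By rho these were -0.38, -0.40, -0.10, -0.17 and 0.17 (exact permutation, adjusted p 0.596 to 0.848), and without the 2 farthest tumors r was -0.24, -0.45, -0.20, -0.11 and -0.23. Cdh1 and Epcam did not run together either (r -0.12, exact permutation, adjusted p = 0.820, rho 0.03, adjusted p = 0.948, and r 0.58 without the 2 farthest tumors).

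**Figure D4:**
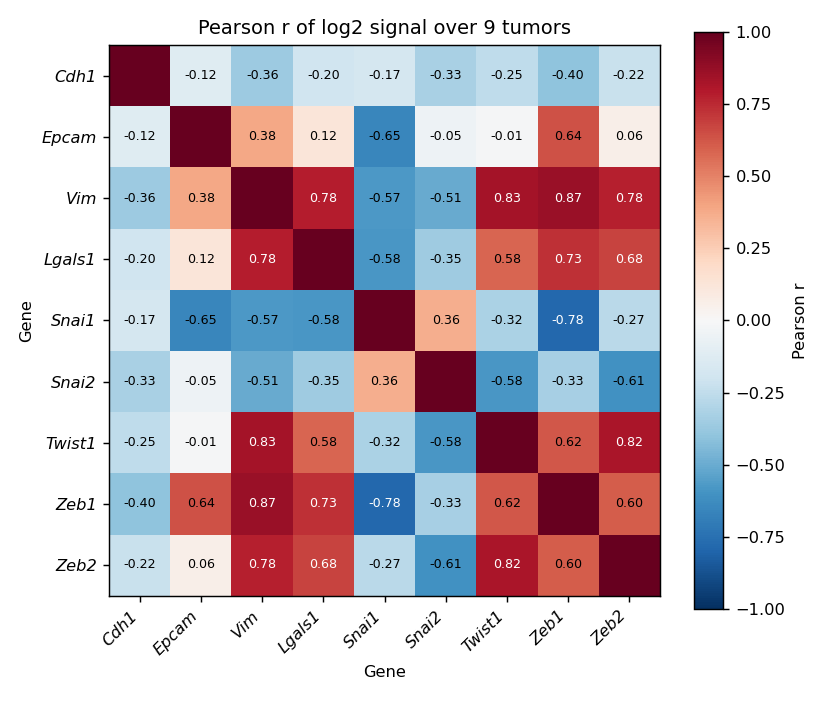
Pearson r of log2 signals over the 9 tumors between 9 EMT genes, each by its brightest probe set (red, positive; blue, negative). Vim, Zeb1, Zeb2, Lgals1 and Twist1 are positive with each other (0.58 to 0.87, the highest for Vim with Zeb1). Snai1 and Snai2 are negative with each of these genes (-0.78 for Snai1 with Zeb1 to -0.27 for Snai1 with Zeb2). Cdh1 is negative with every other gene shown (-0.40 to -0.12). No r passed after adjustment. Without p53-/- tumor 2 and p53R172H/- tumor 1, r of Lgals1 was -0.55 with Vim, -0.60 with Zeb1, -0.09 with Twist1 and 0.05 with Zeb2.

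Markers of stromal cells varied over the same tumors. The fibroblast and matrix list summed to 18446 to 27861 units in p53R172H/-, 29382 to 35443 units in p53R172H/+ and 23184 to 38290 units in p53-/- tumors. Its lowest mean log2 signals were 9.43 in p53R172H/- tumor 1 and 9.64 in p53-/- tumor 2, the tumors lowest in Vim and Lgals1. Of 50 relations of the members with 5 marker lists, 1 passed after adjustment, Lgals1 with the fibroblast and matrix list (r 0.95, exact permutation p = 0.000394, adjusted p = 0.0197, rho 0.83, adjusted p = 0.413). It was 0.76 without the 2 farthest tumors and 0.95 within genotypes. With 1 tumor left out r was 0.91 to 0.97, but the adjusted p passed 0.05 without p53-/- tumor 2 (0.140), p53R172H/- tumors 1 (0.140), 2 (0.103) or 3 (0.0558) or p53R172H/+ tumor 1 (0.0608).

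Vim with the fibroblast and matrix list had r 0.79 (exact permutation, adjusted p = 0.138, rho 0.47, adjusted p = 0.582) and -0.13 without the 2 farthest tumors. Zeb2 with the macrophage and monocyte list had r 0.77 (exact permutation, adjusted p = 0.138, rho 0.62, adjusted p = 0.553) and 0.70 without its 2 farthest. With the skeletal muscle list Zeb2 had r 0.69 (exact permutation, adjusted p = 0.167, rho 0.77, adjusted p = 0.519), 0.48 without its 2 farthest and 0.91 within genotypes, where the macrophage relation was 0.90. The macrophage and monocyte list summed to 5812 to 11921 units in p53R172H/-, 8250 to 12450 units in p53R172H/+ and 5574 to 9199 units in p53-/- tumors. Zeb1 with the endothelial list had r 0.82 (exact permutation, adjusted p = 0.138, rho 0.58, adjusted p = 0.553) and 0.30 without the 2 farthest tumors. The endothelial list summed to 2744 to 2994 units in p53R172H/-, 2900 to 3273 units in p53R172H/+ and 2696 to 3239 units in p53-/- tumors. These relations were not particular to 1 cell type. With the macrophage and fibroblast lists Zeb1 had r 0.77 and 0.73. With the endothelial and macrophage lists Vim had 0.76 and 0.72, and Lgals1 0.76 and 0.74. Zeb2 had 0.69 with the fibroblast list. For these the adjusted p was 0.138 to 0.167 (exact permutation), rho was 0.40 to 0.58, and r was -0.26 to 0.54 without the 2 farthest tumors. The part of these cells in the members' levels was not tested. Snai2 had negative r with the fibroblast (-0.38), macrophage (-0.29) and muscle (-0.56) lists and 0.29 with the keratinocyte list (exact permutation, adjusted p 0.330 to 0.630). The rho values were -0.18, -0.40, -0.73 and 0.38 (exact permutation, adjusted p 0.519 to 0.884), and r without the 2 farthest tumors was -0.36, -0.48, -0.66 and 0.60.

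**Figure D5:**
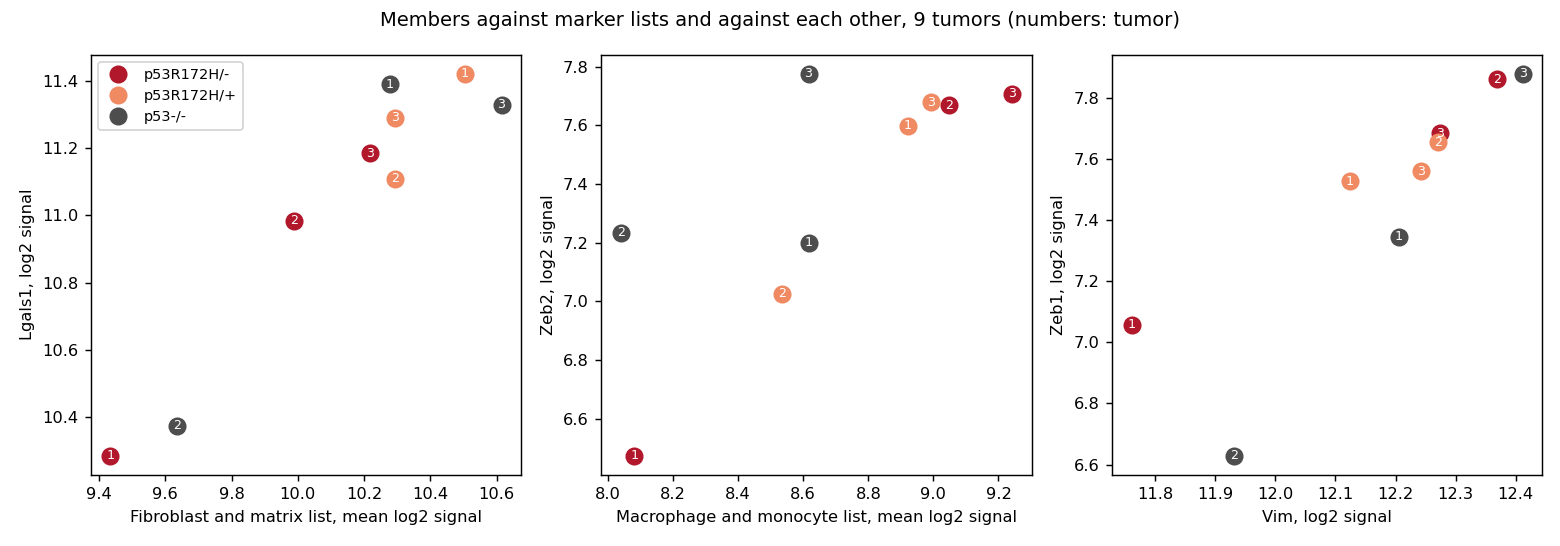
Log2 signals of Lgals1 against the mean of the fibroblast and matrix list, of Zeb2 against the macrophage and monocyte list, and of Zeb1 against Vim, in 9 tumors (points numbered by tumor, coloured by genotype). Each member is shown by its brightest probe set only. p53R172H/- tumor 1 and p53-/- tumor 2 sit at the low end of the fibroblast and Vim panels (r of 0.95 and 0.87), apart from the other seven.

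As a description, the genes whose log2 signal over the 9 tumors was most like each member's were ranked among 12166 others, with genes of one platform and few tumors giving high values readily. For Vim they were H2az2 (r 0.94), which encodes a histone variant, Antxr1 (0.93), an anthrax toxin receptor gene, and Prrx1 (0.93), a homeobox factor gene of mesenchyme that is also in the list of other EMT factors. For Lgals1 they were Dkk3 (0.96), Add3 (0.95) and Fstl1 (0.95), the last a member of the fibroblast list. Zeb1 was most like Ccar2 (0.98), Ttll11 (0.97) and Lhfp (0.95), and Zeb2 like Tex2 (0.97), Itprid2 (0.96) and Gpm6b (0.96). Snai2 was most like Sprr2k (0.95), a cornified envelope gene, Micall2 (0.94) and Tbcc (0.94). Cdh1 was most like 1190005I06Rik (0.91), Mrps25 (0.88) and Atg3 (0.88), and Epcam like Zfx (0.96), Ccdc82 (0.93) and Erg28 (0.93). Among the other genes, Zeb1 ranked 55 for Vim, Lgals1 195 and Zeb2 217.

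The wider EMT lists gave 0 calls over all genes in every comparison. Of 39 tested mesenchymal genes, 23 were lower and 16 higher on average in p53R172H/- than in p53-/- tumors (median log2 fold change -0.07, against -0.03 over all genes). At an unadjusted p under 0.05 (limma), 9 of the 39 were lower and 0 higher, where all genes gave 9.16% lower and 6.44% higher. The fibroblast and matrix markers had a median of -0.60 over 13 tested genes in the same comparison, with 8 lower at an unadjusted p under 0.05. Smallest in p were Sparc, a matrix glycoprotein gene (5039 ± 373 units in p53R172H/- and 6704 ± 1050 units in p53-/- tumors, SD, n = 3 each, log2 fold change -0.40 ± 0.12 SE, adjusted p = 0.243 by limma), and Pdgfrb, a receptor gene of fibroblasts and pericytes (-0.67 ± 0.20 SE). In p53R172H/+ against p53-/- tumors 25 of 39 were higher and 14 lower (median 0.04), with 0 at an unadjusted p under 0.05 in either direction, and Itgb1 (0.63 ± 0.31 SE) and Itga5 (-0.30 ± 0.15 SE), both integrin subunit genes, had the smallest p. Between p53R172H/- and p53R172H/+ tumors 33 of 39 were lower and 6 higher (median -0.12, against -0.01). At an unadjusted p under 0.05 (limma), 7 of the 39 were lower and 0 higher there, where all genes gave 2.96% lower and 2% higher. Sparc (-0.48 ± 0.12 SE, adjusted p = 0.916 by limma) and Pdgfrb (-0.67 ± 0.20 SE) led again. The fibroblast and matrix markers had a median of -0.67 over 13 tested genes in that comparison, and the skeletal muscle markers had 17 of 17 tested genes higher there (median 1.94). Against p53-/- tumors 15 of 17 muscle genes were higher in p53R172H/- tumors (median 1.36). The part of either cell type in these values was not tested.

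Epithelial junction genes and genes that oppose EMT were evenly split in direction. Of 38 tested, 18 were higher and 20 lower in p53R172H/- against p53-/- tumors (median -0.03), and 19 and 19 in p53R172H/+ against p53-/- tumors (median 0.00072). Unadjusted p under 0.05 (limma) gave 4 higher and 3 lower in the first comparison, against 6.44% and 9.16% of all genes. In the second it gave 3 and 3, against 4.75% and 5.6%. Groups were apart upward for 8 and downward for 7 in the first, against 9.11% and 13.8% of all genes. In the second these were 3 and 6, against 7.08% and 8.86%. Marveld2, a gene of tight junction corners between 3 cells, averaged 196 ± 11.8 units in p53R172H/- and 133 ± 23.5 units in p53-/- tumors (SD, n = 3 each, log2 fold change 0.58 ± 0.15 SE, adjusted p = 0.214 by limma). Prss8, a membrane serine protease gene of epithelia, had -0.32 ± 0.10 (SE) in that comparison. In p53R172H/+ tumors Ovol1, an epithelial zinc finger factor gene, averaged 1947 ± 154 units, against 1341 ± 175 units in p53-/- tumors (SD, n = 3 each, 0.54 ± 0.12 SE, adjusted p = 0.359 by limma), and Klf5 had -0.31 ± 0.08 (SE). Between the mutant groups Cldn1, the claudin-1 gene of tight junctions, averaged 1544 ± 67.2 units in p53R172H/- and 1087 ± 154 units in p53R172H/+ tumors (0.52 ± 0.15 SE), and Ctnna1, the alpha-catenin gene, had 0.21 ± 0.09 (SE).

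Of 17 tested other EMT factors, 11 were higher in p53R172H/- and 12 in p53R172H/+ tumors, each against p53-/- tumors (medians 0.08 and 0.14). Unadjusted p under 0.05 (limma) gave 3 higher and 1 lower in p53R172H/- tumors, against 6.44% and 9.16% of all genes. In p53R172H/+ tumors it gave 3 and 0, against 4.75% and 5.6%. Foxc1, a forkhead factor gene, averaged 351 ± 14.3 units in p53R172H/-, 266 ± 21.6 units in p53R172H/+ and 224 ± 51.0 units in p53-/- tumors (SD, n = 3 each). Its log2 fold change was 0.67 ± 0.15 (SE, adjusted p = 0.214 by limma) for p53R172H/- against p53-/- tumors, and Sox11 had -0.39 ± 0.14 (SE). Id1 (0.63 ± 0.26 SE) and Id3 (0.47 ± 0.18 SE), which encode inhibitors of helix-loop-helix factors, had the smallest p in p53R172H/+ against p53-/- tumors. Of 28 tested inducers and partners, 17 were higher in p53R172H/- and 19 in p53R172H/+ tumors, each against p53-/- tumors (medians 0.07 and 0.12). Unadjusted p under 0.05 (limma) gave 4 higher and 0 lower in p53R172H/- tumors, and 2 and 1 in p53R172H/+ tumors, beside the same shares of all genes. Hif1a, the hypoxia factor gene, averaged 4023 ± 515 units in p53R172H/-, 3828 ± 596 units in p53R172H/+ and 2664 ± 225 units in p53-/- tumors (SD, n = 3 each). Against p53-/- tumors it had log2 fold changes of 0.59 ± 0.13 in p53R172H/- and 0.52 ± 0.13 in p53R172H/+ tumors (SE, adjusted p of 0.214 and 0.359 by limma). Smad7, an inhibitor of TGF-beta signalling, had 0.81 ± 0.18 (SE) in p53R172H/+ against p53-/- tumors, and Ezh2, a histone methyltransferase gene, 0.38 ± 0.12 (SE) in p53R172H/- against p53-/- tumors. Wwtr1, the TAZ coactivator gene, had the smallest p of that list between p53R172H/- and p53R172H/+ tumors (-0.26 ± 0.11 SE).

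Of 22 other cadherin genes, 9 were bright enough to be tested. Cdh11, a cadherin gene of mesenchymal cells, averaged 188 ± 45.3 units in p53R172H/- and 353 ± 85.4 units in p53R172H/+ tumors, and 301 ± 91.4 units in p53-/- tumors (SD, n = 3 each). Its log2 fold change was -0.91 ± 0.28 (SE, adjusted p = 0.948 by limma) between the mutant groups and -0.66 ± 0.28 (SE) for p53R172H/- against p53-/- tumors. Celsr2, a seven-pass cadherin gene of epithelia and neurons, averaged 725 ± 132 units in p53R172H/-, 707 ± 41.1 units in p53R172H/+ and 939 ± 70.7 units in p53-/- tumors (SD, n = 3 each). Against p53-/- tumors it had -0.39 ± 0.14 and -0.41 ± 0.14 (SE, adjusted p of 0.265 and 0.407 by limma) in p53R172H/- and p53R172H/+ tumors. Cdh3, the P-cadherin gene of basal epithelium, had 0.20 ± 0.11 (SE) in p53R172H/+ against p53-/- tumors, and Celsr1 0.20 ± 0.18 (SE) between the mutant groups. With both p53R172H groups set against p53-/- tumors, the 2 genes of smallest p in each of the 5 lists were Hif1a (0.55 ± 0.11 SE, adjusted p = 0.183 by limma) and Smad7, Ovol1 and Marveld2, Foxc1 and Id1, Itga5 and Fgfr1, and Celsr2 and Cdh3. Fgfr1, a growth factor receptor gene, had -0.24 ± 0.10 (SE). None of these values passed after adjustment.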

How the data were processed

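RNA from 9 tumors was isolated on RNeasy columns and hybridised as biotinylated cRNA to Affymetrix arrays, per the labels' protocols. For each array the deposited values are linear signal intensities, 1 a probe set, which the authors made with MAS5 per the submitters' processing notes. The version and scaling of MAS5 were not given there, and detection calls were not used here. Of 45037 non-control probe sets, 34945 had 1 symbol in the platform annotation, 932 several and 9160 none, and only the first were tested. By gene identifier 34741 matched the RefSeq gene table (GRCm38.p6), which changed 0 symbols. The targeted gene is not reported here.

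Values were floored at the 20th percentile and put on the log2 scale without renormalizing. The gene fit used each gene's probe set with the highest mean where that mean reached the median of non-control probe sets (113 units). The probe set fit used every probe set with a mean signal at or above the floor. Both were limma 3.58.1 (R 4.3.3) models with a mean per genotype over all 9 arrays and a variance trend, two-sided, Benjamini-Hochberg adjusted over all features, threshold 0.05. Correlations used two-sided exact permutation in Python 3.11.15, adjusted over 45 pairs, 50 relations with marker lists, or 10 pairs of probe sets of 1 gene. The gene fit and the permutation test were tested on simulated data, and the probe set fit was not.

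The members and lists were chosen with earlier results of these data known. Genes named are the members, the 2 with the smallest p of each list and comparison, and the 3 most alike to each tested member. Alternatives were other normalizations, floors, filters, variance models and probe sets, the compared groups alone, a block and left-out tumors. Tumor numbers were not taken as pairs, since the labels state no shared source and only 3 of 9 same-numbered pairs had deviations correlated over 0.1. The number of arrays limits the precision.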

Additional observations from a re-analysis of the deposited data

Results flagged for a closer look

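Vim on probe set 1450641_at was low in 1 of the 6 p53R172H tumors, p53R172H/- tumor 1, at 2033 units. Outside these 6, p53-/- tumor 2 was lower still, at 1900 units. On the log2 scale the gap from p53R172H/- tumor 1 to the next of the 6 was 0.797 of their range, above Dixon's critical value of 0.625. This was the only one of 17 probe sets with such a gap, and chance flags about 1 in 20 groups. The same tumor had the lowest fibroblast and matrix level of the 9 (mean log2 signal 9.43), and the part of this in the Vim level was not tested.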

How the results depend on the processing

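Of 687 log2 fold changes of the members recomputed under 20 alternatives, 638 kept their direction, 49 reversed and 0 passed the adjusted threshold (smallest adjusted p 0.189 by limma). Of the reversals 40 came from leaving out 1 tumor, in results whose log2 fold changes then crossed 0. For p53R172H/- against p53-/- the ranges were Cdh1 -0.16 to 0.052, Lgals1 -0.54 to 0.053, Snai1 -0.33 to 0.081, Vim -0.17 to 0.14, Zeb1 -0.078 to 0.55, Zeb2 -0.33 to 0.29. For p53R172H/+ against p53-/- the ranges were Epcam -0.050 to 0.53, Lgals1 -0.086 to 0.42, Snai1 -0.26 to 0.15, Twist1 -0.15 to 0.14, Vim -0.096 to 0.14, Zeb1 -0.032 to 0.59, Zeb2 -0.091 to 0.24. For p53R172H/- against p53R172H/+ the ranges were Cdh1 -0.0075 to 0.20, Snai1 -0.14 to 0.047, Twist1 -0.29 to 0.012, Vim -0.19 to 0.11, Zeb1 -0.21 to 0.19, Zeb2 -0.36 to 0.25. For both p53R172H groups against p53-/- the ranges were Lgals1 -0.31 to 0.19, Snai1 -0.29 to 0.12, Twist1 -0.21 to 0.055, Vim -0.14 to 0.11, Zeb1 -0.055 to 0.57, Zeb2 -0.15 to 0.16. Without crossing 0, the value moved by over 1.5 times for Twist1 (-0.33 to -0.024) and Snai2 (0.069 to 0.37) in p53R172H/- against p53-/-, for Epcam (0.32 to 0.90), Lgals1 (-0.64 to -0.19) and Snai2 (-0.41 to -0.15) in p53R172H/- against p53R172H/+, and for Cdh1 (-0.15 to -0.048), Epcam (0.32 to 0.81) and Snai2 (0.20 to 0.50) for both p53R172H groups. The causes were not tested.

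After quantile normalization Twist1 in p53R172H/+ against p53-/- tumors was 0.030, and for both p53R172H groups Lgals1 was -0.0038 and Zeb2 0.019. With arrays scaled to 1 75th percentile Vim was 0.0071 for both p53R172H groups. Without p53R172H/- tumors 2 and 3, the muscle-rich ones, Cdh1 was 0.017 and Zeb1 -0.23 against p53-/- tumors, Snai1 0.022 and Snai2 0.034 against p53R172H/+ tumors, and Lgals1 -0.25 for both p53R172H groups. Larger moves without a change of sign in that setting were those of Zeb2 (-0.93), Lgals1 (-0.74), Twist1 (-0.55), Vim (-0.42) and Snai2 (0.53) against p53-/- tumors. Only tumor 1 of the p53R172H/- genotype is left there. On their brightest probe sets it was the lowest of the 9 tumors in Vim, Lgals1, Twist1 and Zeb2, and it was lowest in the fibroblast and matrix list. That setting also called 3 genes in p53R172H/- against p53-/- tumors, Lce1b, Lce1c and Rnf227 (chosen after their values were seen), none of them an EMT gene. Without p53R172H/+ tumor 3, 1 gene and 1 probe set, both Dusp6, were called for both p53R172H groups, so that leaving out 1 tumor gave 0 to 1 calls. The relations with marker lists that passed were 0 to 1.

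Other probe sets of the same genes, an alternative chosen after seeing the data, gave the opposite direction in 11 of 32 values. Epcam on 1447899_x_at was -0.17 (p53R172H/-), -0.23 (p53R172H/+) and -0.20 (both) against p53-/- tumors. Vim was 0.086 on 1450641_at (both) and -0.072 on 1456292_a_at (p53R172H/+). Zeb2 on 1422748_at was 0.27 (p53R172H/-) and 0.23 (both) against p53-/- tumors and 0.074 for p53R172H/- against p53R172H/+ tumors. On 1458941_at it was 0.046, -0.074 and 0.12 for p53R172H/- against p53-/-, p53R172H/+ against p53-/- and p53R172H/- against p53R172H/+ tumors.

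With the tumor number as a replicate block, limma called 0 genes in all 4 comparisons, with 1822, 1212, 626 and 1885 genes at an unadjusted p under 0.05. Of the 9 tumors, 2 correlated best with their own number. The small number of tumors, the lack of detection calls and signals near the floor limit what could be seen for Cdh2, Snai1 and Twist1.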
